A study of Mus musculus with 4 samples.

Results

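The miRNAs described here are those of the mir-15, mir-16 and mir-322 family, made from 6 mouse hairpins: Mir15a, Mir15b, Mir16-1, Mir16-2, Mir322 and Mir503. They are 6 of the 2202 miRNA hairpins annotated by GENCODE vM21. Reads were taken as members when they matched one of these hairpins without mismatch on its sense strand. Reads that did so only once their last 1, 2 or 3 bases were set aside were kept as tailed reads. Family reads numbered 767420 in Ago2 CD replicate 1, 399072 in Ago2 CD replicate 2, 308534 in wildtype replicate 1 and 406065 in wildtype replicate 2. These are 3.51% and 2.62% of all reads of the Ago2 CD libraries and 1.95% and 3.09% of all reads of the wildtype libraries. No family read matched any other hairpin.

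The libraries are small RNA-seq of mouse fetal liver of 2 genotypes. Ago2 CD mice carry a catalytic dead form of Ago2, the mouse Argonaute with slicer activity toward RNA bound by its small RNA, and wildtype mice were the controls. There are 2 libraries per genotype, which the series' design text calls biological replicates. The labels give no strain, fetal age or zygosity, and do not say whether livers were pooled.

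MiRNAs are cut from a hairpin as a duplex of a 5p and a 3p arm, and one arm is usually retained by an Argonaute protein. The seed, the stretch near the 5′ end of the miRNA, does most of the target pairing, so miRNAs with one seed can share targets. The miR-15 and miR-16 group is best known for lowering cyclins and other proteins of cell cycle entry and the anti-apoptotic protein Bcl2. MiR-322, the mouse ortholog of human miR-424, and miR-503 are transcribed together and are also known to act on the cell cycle.

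The mature 5p sequences show which members share a seed. They are given 5′ to 3′ from RefSeq on build GRCm38, with the seed (bases 2 to 8) in capitals.
miR-15a-5p: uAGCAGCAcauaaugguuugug
miR-15b-5p: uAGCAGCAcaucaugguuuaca
miR-16-5p: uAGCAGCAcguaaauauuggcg
miR-322-5p: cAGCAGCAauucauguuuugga
miR-503-5p: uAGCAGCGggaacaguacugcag
The first 4 have the seed AGCAGCA, and miR-503-5p has AGCAGCG. Aligned from the first base without gaps, miR-15a-5p and miR-15b-5p are identical at 18 of 22 positions. MiR-15a-5p matches miR-16-5p at 16 of 22 positions and miR-322-5p at 15 of 22. MiR-503-5p is the most distant member, with 11 or 12 of 22 positions identical to each of the others.

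The 3p arms of mir-16 are shown because they differ between the 2 hairpins, which share the mature miR-16-5p sequence. Capitals again mark bases 2 to 8.
miR-16-1-3p: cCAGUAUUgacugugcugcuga
miR-16-2-3p: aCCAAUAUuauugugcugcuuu
These 2 arms are identical at 12 of 22 positions and have different seeds.

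The hairpins lie in 3 pairs, all placed on GRCm38. Mir15a (chr14:61632027-61632110) and Mir16-1 (chr14:61631880-61631972) lie on the minus strand of chromosome 14 with 54 bases between them, both within the lncRNA gene Dleu2. One Dleu2 exon overlaps Mir16-1, and none overlaps Mir15a. Mir15b (chr3:69009772-69009835) and Mir16-2 (chr3:69009902-69009996) lie on the plus strand of chromosome 3 with 66 bases between them, within an intron of Smc4, a condensin subunit gene. Mir322 (chrX:53054255-53054349) and Mir503 (chrX:53053984-53054054) lie on the minus strand of the X chromosome with 200 bases between them and overlap no other annotated gene.

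The libraries held 21875540 and 15238066 reads in Ago2 CD replicates 1 and 2 and 15841697 and 13138065 in wildtype replicates 1 and 2. Of these, 14419937 and 7813074 reads in Ago2 CD and 9684080 and 9177502 in wildtype were assigned to a miRNA arm. MiR-451a, whose maturation is known to need the cutting activity of Ago2, had 23964 and 9174 reads in Ago2 CD and 5023811 and 3678899 in wildtype. The longest read was 46 nt in Ago2 CD 1 and wildtype 2 and 50 nt in Ago2 CD 2 and wildtype 1, so each read length held one library of each genotype. Log2 levels of the 568 tested arms deviated together between libraries of equal longest read (r = 0.727 for deviations from the genotype means, over arms). Values are therefore also given within these pairs. Marker miRNAs of red cells summed to 248563 and 331091 CPM in Ago2 CD and 1125514 and 587518 CPM in wildtype, and 2 of the 6 marker arms passed the test. Most of the wildtype sums was miR-451a itself. Without it the sums were 246465 and 328294 CPM in Ago2 CD and 282567 and 170581 CPM in wildtype, which overlap. The 50 nt library of each genotype had the higher of these sums, and within each read length Ago2 CD was higher. These sums were mostly miR-144-3p, and both miR-144 arms overlapped. The miR-486 arms, counted together with those of Mir3107, did not. MiR-486-5p had 544 and 639 CPM in Ago2 CD and 2181 and 1671 CPM in wildtype. MiR-486-3p had 784 and 822 CPM in Ago2 CD and 17.8 and 25.8 CPM in wildtype. CPM are read counts scaled to library sizes that edgeR's TMM factors had adjusted, so a sum can exceed the nominal total. Of 7 hepatocyte marker arms, 6 were tested and none passed, with sums of 75415 and 35490 CPM in Ago2 CD and 26249 and 59044 CPM in wildtype. The 46 nt library of each genotype had the higher hepatocyte sum, and within each read length Ago2 CD was higher. Muscle markers summed to 717 CPM in wildtype 1 and to at most 34.96 CPM in the other libraries. Neural markers also followed read length, at 316 and 16.4 CPM in Ago2 CD and 13.1 and 270 CPM in wildtype. No listed marker arm was at 0 in every library. Their part in the results that follow was not tested. In bulk tissue, fewer cells of a type and less RNA per cell cannot be told apart.

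The first comparison asked whether any arm of the family changed in level with loss of Ago2 cutting activity. All 11 arms passed the filter on low counts, and 0 of 11 passed edgeR's quasi-likelihood test at a Benjamini-Hochberg adjusted p under 0.05 (adjusted p = 0.994 for each). In this test, which has no term for longest read, only miR-16-1-3p had an unadjusted p under 0.05. DESeq2 called 0 of 11 as well, and gave 0 of 11 an unadjusted p under 0.05. The edgeR test called 2 of all 568 arms, or 0.352%. The median log2 fold change of Ago2 CD over wildtype was -0.29 over the family arms and 0.038 over all tested arms. With longest read as a term in the edgeR model, 0 of 11 family arms and 8 of 568 arms passed. The lowest family adjusted p was then 0.10 (edgeR). An unadjusted edgeR p under 0.05 was then found for 4 of 11 family arms and 131 of 568 arms. A p that misses the threshold does not show that levels were equal.

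MiR-16-5p was the most abundant member and ranked 6 among the 568 arms by mean CPM. It had 23212 and 22286 CPM in Ago2 CD and 28252 and 27378 CPM in wildtype, from 168379 to 462301 reads per library. Both Ago2 CD libraries were below both wildtype libraries, with a log2 fold change of -0.29 (SE 0.28, n = 2 per genotype). The values within the 46 nt and the 50 nt pair were -0.24 and -0.34.

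MiR-15a-5p, the partner of miR-16-5p in the Dleu2 cluster, had 5388 and 4662 CPM in Ago2 CD and 5886 and 7021 CPM in wildtype. MiR-15b-5p, its partner in the Smc4 cluster, had 4884 and 5358 CPM in Ago2 CD and 7099 and 5751 CPM in wildtype. For each, both Ago2 CD libraries were again the lowest. Log2 fold changes were -0.36 (SE 0.28) for miR-15a-5p and -0.33 (SE 0.28) for miR-15b-5p. Without tailed reads, the 2 miRNAs did not differ in mean level beyond their spread. Means were 5025 ± 513 against 5121 ± 335 CPM in Ago2 CD. In wildtype they were 6454 ± 803 against 6425 ± 953 CPM (SD, n = 2 each).

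MiR-322-5p, from the X chromosome, had 1030 and 754 CPM in Ago2 CD and 976 and 936 CPM in wildtype. The groups overlapped (log2 fold change -0.10, SE 0.29), and the 46 nt and 50 nt pairs gave opposite signs, 0.14 and -0.37. MiR-503-5p, its neighbor, had 301 and 157 CPM in Ago2 CD and 147 and 295 CPM in wildtype. Its higher library of each genotype was the one of 46 nt, and its change within the pairs was 0.03 and 0.09. Among reads of 18 to 27 nt without tails, the order in each library was thus miR-16, then miR-15a and miR-15b, then miR-322 and miR-503. MiR-15a-5p and miR-15b-5p could not be ordered in this count. With tailed reads counted, miR-15a-5p held a larger share of 5p reads than miR-15b-5p in every library, as given below.

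**Figure D1:**
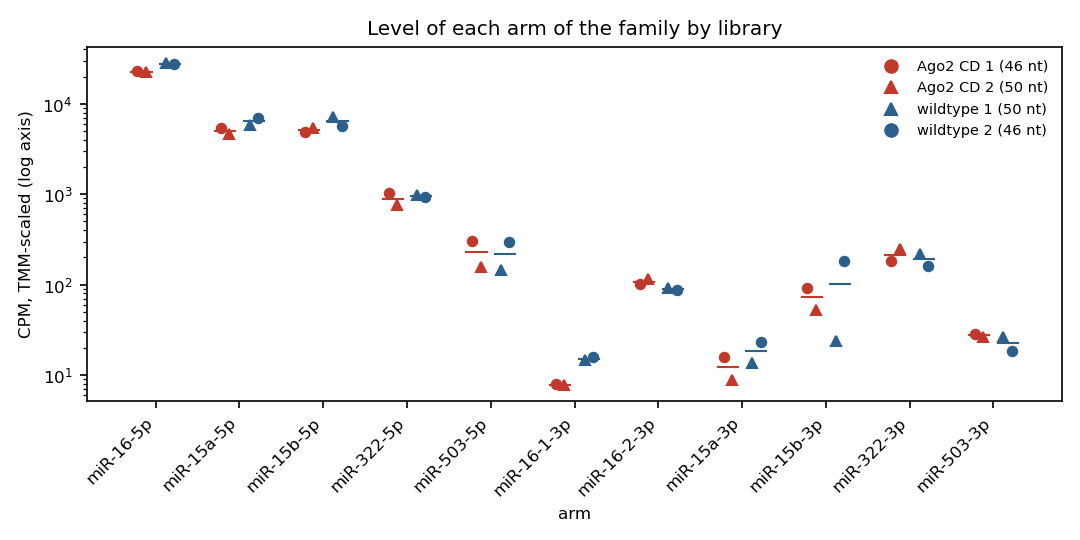
Level of each of the 11 arms in TMM-scaled CPM on a log axis, with Ago2 CD libraries in red to the left of wildtype libraries in blue, circles for libraries with a longest read of 46 nt and triangles for 50 nt, and short lines for group means. MiR-16-5p has the highest points, from 22286 to 28252 CPM, and miR-16-1-3p lies below 8 CPM in both Ago2 CD libraries and above 14 CPM in both wildtype libraries.

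The 3p arms had at most 246 CPM in any library, and for each hairpin the 3p arm was below the 5p arm. MiR-16-1-3p, the Dleu2 copy's passenger arm, had 7.88 and 7.85 CPM in Ago2 CD and 14.6 and 15.8 CPM in wildtype, from 157, 75, 87 and 139 reads in the same order. Its levels did not overlap between genotypes, and the log2 fold change was -0.95 (SE 0.35, edgeR unadjusted p = 0.0473, adjusted p = 0.994). Within the 46 nt and the 50 nt pair the change was -0.98 and -0.88.

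MiR-16-2-3p, the passenger arm of the Smc4 copy, stood the other way round. It had 101 and 115 CPM in Ago2 CD and 92.8 and 86.5 CPM in wildtype (log2 fold change 0.27, SE 0.29). Within the pairs the change was 0.22 and 0.31.

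MiR-15a-3p had 15.97 and 8.90 CPM in Ago2 CD and 13.8 and 23.1 CPM in wildtype, and the genotypes overlapped. MiR-15b-3p varied most, with 92.6 and 52.0 CPM in Ago2 CD and 23.8 and 181 CPM in wildtype. Its log2 fold change of -0.50 had an SE of 1.00, and the 2 pairs had opposite signs, -0.96 and 1.12. Without wildtype replicate 2 its estimate was 1.64.

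MiR-322-3p had 182 and 246 CPM in Ago2 CD and 219 and 163 CPM in wildtype, which overlapped (log2 fold change 0.16, SE 0.33). MiR-503-3p had 28.8 and 26.6 CPM in Ago2 CD and 26.3 and 18.5 CPM in wildtype, with a log2 fold change of 0.31 (SE 0.37). Both of its Ago2 CD libraries were above both wildtype libraries, by a margin of under 1 CPM between the nearest 2.

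Across the family, 2 of 11 arms had both Ago2 CD libraries above both wildtype libraries (miR-16-2-3p and miR-503-3p), a pattern found in 15% of all tested arms. Another 4 had both Ago2 CD libraries below (miR-15a-5p, miR-15b-5p, miR-16-5p and miR-16-1-3p), a pattern found in 14.6% of all tested arms. The signs depend on scaling. With the number of reads on arms as library size, 10 of 11 family arms were above 0 with a median of 0.44. MiR-16-1-3p was the arm below 0 there, at -0.23. The median of all arms was then 0.744. A change of scaling moves all arms by about the same amount. The place of the family below the median arm is therefore no separate result of either scaling.

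**Figure D2:**
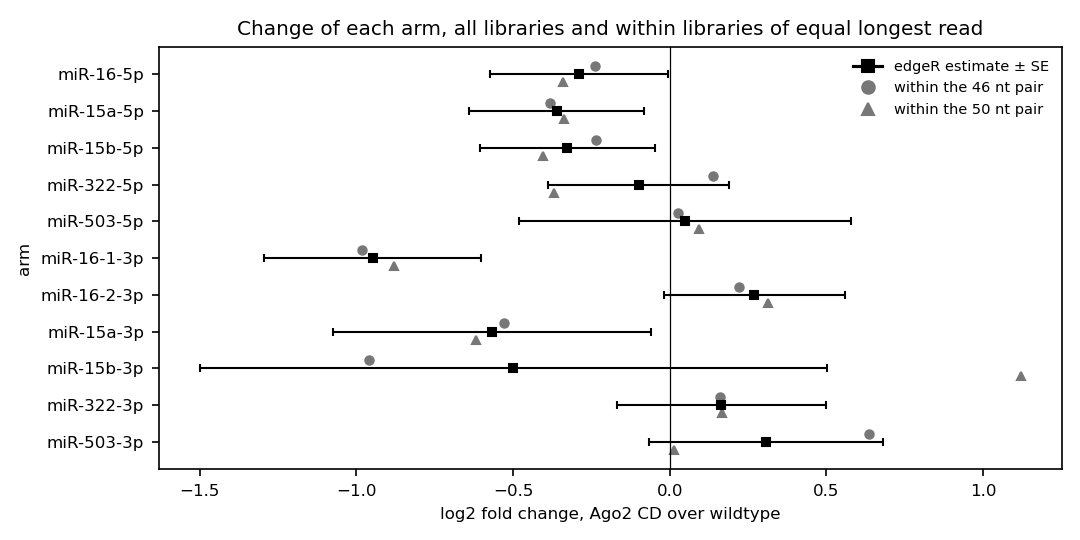
Log2 fold change of Ago2 CD over wildtype for each of the 11 arms, with black squares and bars for the edgeR estimate and its SE, gray circles for the change within the 46 nt pair and gray triangles for the change within the 50 nt pair. MiR-16-1-3p lies farthest from 0 among the estimates, at -0.95, with both pairs near it, and miR-15b-3p has its pairs on opposite sides of 0.

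Other mouse miRNAs carry the same seed or lie beside Mir322 and Mir503. Of the seed relatives on mir-195a, mir-497 and mir-497b, 3 arms were tested (miR-195a-5p, miR-497-5p and miR-497-3p). None was called, and their median log2 fold change was -0.21. MiR-195a-5p had 43.4 and 27.6 CPM in Ago2 CD and 35.4 and 46.9 CPM in wildtype, which is far below miR-16-5p. MiR-497-5p had 10.6 and 26.9 CPM in Ago2 CD and 31.7 and 14.6 CPM in wildtype, again with overlap.

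Among the neighbors of Mir322 and Mir503 on the X chromosome, 9 arms of mir-351, mir-542, mir-450-1, mir-450-2 and mir-450b were tested and none was called (lowest unadjusted p 0.0821, edgeR). Their median log2 fold change was -0.23. In 3 of them both Ago2 CD libraries were below both wildtype libraries (miR-351-3p, miR-450-2-3p and miR-542-3p), and in none were both above, against 14.6% and 15% of all tested arms. MiR-542-3p, the most abundant of these, had 81.9 and 46.7 CPM in Ago2 CD and 82.7 and 115 CPM in wildtype.

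The arms most like each 5p arm over the 4 libraries were found by the root mean square difference of centered log2 CPM among 369 arms with a mean of at least 10 CPM. MiR-15b-5p was closest to miR-125b-2-3p (difference 0.0214), and miR-15a-5p to miR-151-5p (0.0447). MiR-16-5p was closest to miR-675-3p (0.0599), miR-322-5p to miR-532-5p (0.0587) and miR-503-5p to miR-483-3p (0.0425). With 4 libraries these are descriptions, and no family member was the nearest arm of any other. MiR-483-3p shared the read length pattern of miR-503-5p, with 595 and 295 CPM in Ago2 CD and 291 and 548 CPM in wildtype.

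The makeup of the family was compared as the share of each member among its 5p reads, which does not depend on library scaling. MiR-16-5p made up 66.7% and 67.1% in Ago2 CD and 66.7% and 66.2% in wildtype. MiR-15a-5p made up 15.5% and 14.04% in Ago2 CD and 13.9% and 16.97% in wildtype, and miR-15b-5p 14.03% and 16.1% in Ago2 CD and 16.8% and 13.9% in wildtype. Without tailed reads, the higher of the 2 was miR-15a-5p in both 46 nt libraries and miR-15b-5p in both 50 nt libraries. With tailed reads counted, miR-15a-5p was the higher in every library. It then held 17.6% and 18.8% in Ago2 CD and 18.6% and 19.4% in wildtype. MiR-15b-5p then held 13.4% and 14.03% in Ago2 CD and 14.9% and 13.15% in wildtype. MiR-322-5p held 2.96% and 2.27% in Ago2 CD and 2.30% and 2.26% in wildtype. Among reads of 20 to 25 nt its share split by longest read, at 2.79% and 0.207% in Ago2 CD and 0.259% and 2.11% in wildtype. The share of miR-503-5p was 0.864% and 0.471% in Ago2 CD and 0.346% and 0.713% in wildtype. Differences of the means were between -0.68 and 0.45 percentage points, none with an exact permutation p under 0.667 (smallest possible two-sided p 0.333). With tailed reads counted, the miR-16-5p difference was 0.66 points with an exact permutation p of 0.333. Leaving out one library turned the sign of the other 4 differences. The miR-15a-5p difference was 0.86 points without wildtype 2 and -2.21 without wildtype 1, and that of miR-15b-5p was 1.18 without wildtype 1 and -1.68 without wildtype 2.

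Reads whose own bases 2 to 8 were AGCAGCA summed over the 5p arms to 32291 and 30142 CPM in Ago2 CD and 39229 and 38525 CPM in wildtype. They were 92.7% and 90.7% of 5p family reads in Ago2 CD and 92.6% and 93.1% in wildtype. The direction of the CPM sums depends on the TMM scaling. MiR-16-5p, the source of most of these reads, had a log2 fold change of -0.29 with it. With reads on arms as library size that value was 0.44. The remainder held miR-503-5p, with its own seed AGCAGCG, and reads of the other members that started at other bases.

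The 2 mir-16 loci were compared by their 3p arms and by 5p reads that match only one of them. Mir16-1 gave 7.25% of mir-16 3p reads in Ago2 CD 1 (95% Clopper-Pearson interval 6.19 to 8.43) and 6.37% in Ago2 CD 2 (5.04 to 7.92). In wildtype it gave 13.6% in replicate 1 (11 to 16.5) and 15.4% in replicate 2 (13.1 to 17.9). The intervals of the genotypes did not overlap, and they cover counting error only. The means were 6.81% ± 0.622 in Ago2 CD and 14.5% ± 1.28 in wildtype (SD, n = 2 each), a difference of -7.69 points with an exact two-sided permutation p of 0.333, the smallest that 2 against 2 libraries can give. Most 3p reads matched Mir16-2 in every library. Counted with tailed reads, the shares were 7.54% and 6.27% in Ago2 CD and 12.9% and 15.2% in wildtype.

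The mature 5p sequence is the same from both hairpins, so only 5p reads that run past it point to one of them. The reads that carry 2 more bases are shown, with the 2 templated bases beyond the mature end in capitals.
Mir16-1, chr14:61631934-61631957: tagcagcacgtaaatattggcgTT
Mir16-2, chr3:69009918-69009941: tagcagcacgtaaatattggcgTA
The Mir16-1 read had 2958 and 1228 copies in Ago2 CD and 1044 and 1908 in wildtype. The Mir16-2 read had 584 and 282 copies in Ago2 CD and 224 and 327 in wildtype.
Over all 5p reads extended at the 3′ end, Mir16-1 matched 83.0% and 81.1% in Ago2 CD and 82.6% and 85.1% in wildtype. The difference of means was -1.81 points (82.0% ± 1.38 in Ago2 CD and 83.8% ± 1.80 in wildtype, SD, n = 2 each, exact permutation p = 0.667). The genotypes overlapped in this measure, while they did not in the 3p share. The 2 measures also differ in the main locus, which is Mir16-2 among 3p reads and Mir16-1 among 5p reads extended at the 3′ end, so neither gives the origin of miR-16-5p as a whole. Untemplated T or A added after the mature end would read as templated here, and the 2 cannot be told apart.

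Reads extended at the 5′ end gave another picture, and this measure was added after its values were seen. Mir16-1 matched 41.4% and 1.17% of them in Ago2 CD and 1.07% and 40.9% in wildtype. The 46 nt libraries had the high values and the 50 nt libraries the low ones, with no separation by genotype. The read with one more 5′ base from Mir16-2 had 1462 and 3294 copies in Ago2 CD and 2234 and 812 in wildtype, against 833, 46, 20 and 507 for that from Mir16-1 in the same order.

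Within each library, 3p reads were set against 5p reads of the same hairpin and the ratios were tested with limma. None of the 6 family hairpins passed (adjusted p = 0.995 each, 0 of 6 at an unadjusted p under 0.05), and over all 274 hairpins 2 did, or 0.73%. MiR-16-1-3p was 0.0339% and 0.0352% of the reads of its arm and miR-16-5p together in Ago2 CD and 0.0516% and 0.0575% in wildtype (log2 change of the ratio -0.66, SE 0.46). MiR-16-2-3p was 0.432% and 0.515% in Ago2 CD and 0.327% and 0.315% in wildtype (0.56, SE 0.46). These were the 1 lower and the 1 higher hairpin of 6 without overlap, patterns that 16.8% and 16.1% of all hairpins showed. Both ratios have miR-16-5p as denominator.

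The X-linked hairpins had the largest 3p shares of the family. MiR-322-3p made up 15% and 24.6% of Mir322 arm reads in Ago2 CD and 18.3% and 14.8% in wildtype. MiR-503-3p made up 8.75% and 14.5% of Mir503 arm reads in Ago2 CD and 15.2% and 5.89% in wildtype. In each genotype miR-503-3p had its higher share in the 50 nt library.

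**Figure D3:**
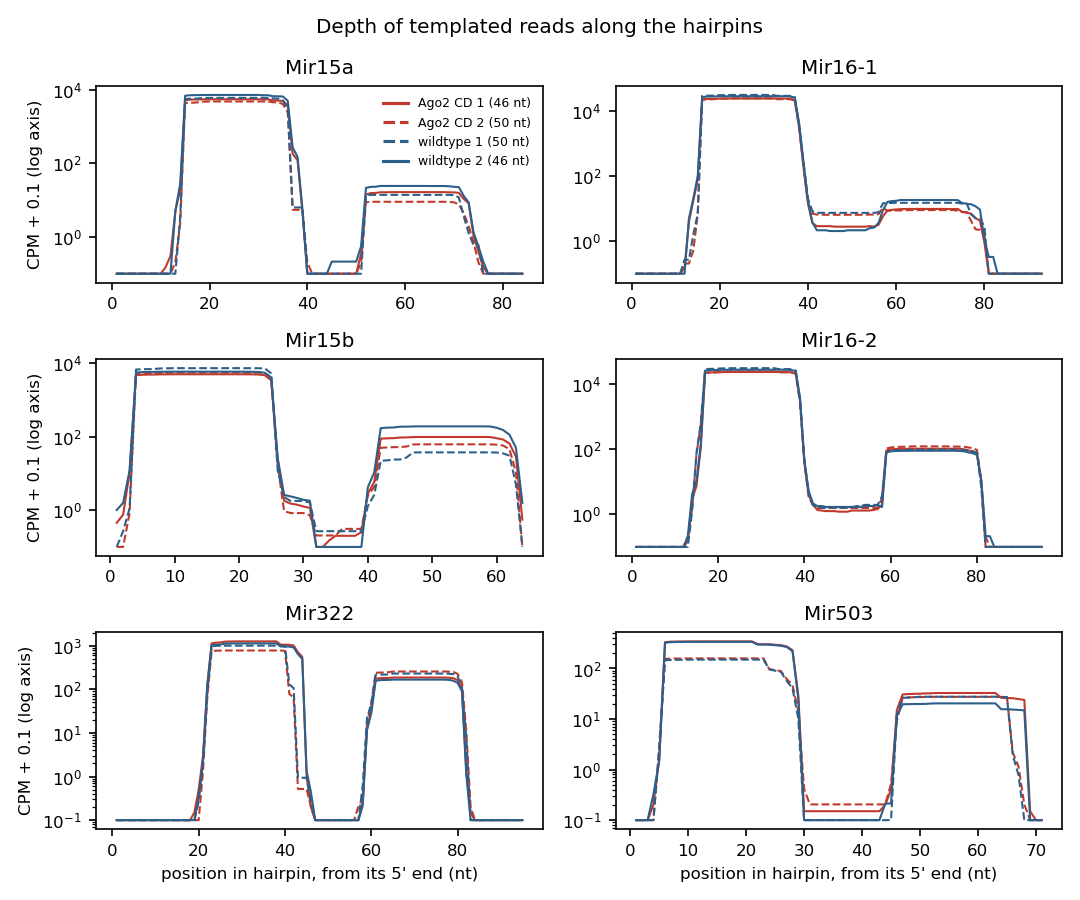
Depth of templated reads along the 6 hairpins from the 5′ end, in CPM plus 0.1 on a log axis, with Ago2 CD in red, wildtype in blue, solid lines for 46 nt and dashed lines for 50 nt libraries. The 5p plateaus are higher than the 3p plateaus in all 6 hairpins, and the 3′ edges of miR-322-5p and miR-503-3p lie further left in the dashed lines of both genotypes.

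Few reads lay in the loop between the arms. Mir16-1 had 54 and 82 loop reads in Ago2 CD and 62 and 17 in wildtype, most of them one 20-nt read (ttaagattctgaaattacct, chr14:61631916-61631935) with 36 and 55 copies in Ago2 CD and 42 and 13 in wildtype. Mir16-2 had 21 and 15 loop reads in Ago2 CD and 9 and 14 in wildtype. Mir15b and Mir503 had at most 1 in a library, and Mir15a and Mir322 had 0, which allows up to 3 reads per library.

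Where the 3′ end of a member runs into the letters TGG, the form found split the libraries by longest read. Reads of 18 to 40 nt ending in TGG were 3.15% and 0.000167% of such reads in Ago2 CD and 6.11e-05% and 2.35% in wildtype, so that they were nearly missing from both 50 nt libraries. The 3′ adapter of the TruSeq small RNA kit begins with these letters; whether trimming has a part in this was not tested. The reads of miR-322-5p are given first, with the letters TGG or TGGA in capitals.
miR-322-5p, 18 nt: cagcagcaattcatgttt
miR-322-5p, 21 nt: cagcagcaattcatgtttTGG
miR-322-5p, 22 nt: cagcagcaattcatgtttTGGA
The 18-nt form had 43 and 6187 reads in Ago2 CD and 4862 and 17 in wildtype. The 21-nt form had 2558 and 0 reads in Ago2 CD and 0 and 1051 in wildtype. The 22-nt form, which is the RefSeq mature sequence, had 9530 and 0 reads in Ago2 CD and 0 and 3789 in wildtype. When TGGA was followed by an untemplated T, the read was present in every library, with 269 and 282 reads in Ago2 CD and 182 and 103 in wildtype.

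MiR-503-3p, miR-16-5p and miR-15a-5p showed the same split at their own TGG.
miR-503-3p, 19 nt: gagtattgtttccactgcc
miR-503-3p, 22 nt: gagtattgtttccactgccTGG
miR-16-5p, 17 nt: tagcagcacgtaaatat
miR-16-5p, 20 nt: tagcagcacgtaaatatTGG
miR-15a-5p, 20 nt: tagcagcacataatggtttg
miR-15a-5p, 24 nt: tagcagcacataatggtttgTGGA
The shorter miR-503-3p read had 0 and 160 copies in Ago2 CD and 79 and 1 in wildtype, and the longer had 235 and 0 in Ago2 CD and 0 and 57 in wildtype. For miR-16-5p the shorter read had 59 and 12622 copies in Ago2 CD and 10937 and 37 in wildtype, and the longer had 10846 and 0 in Ago2 CD and 1 and 5568 in wildtype. The shorter miR-16-5p read lies under the 18-nt minimum of the arm counts. For miR-15a-5p the shorter read had 1103 and 4185 copies in Ago2 CD and 3653 and 695 in wildtype, and the longer had 2153 and 0 in Ago2 CD and 0 and 1176 in wildtype. Every one of these forms separated the libraries by longest read, with one library of each genotype on each side.

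Mean read length split in the same way. Templated reads of miR-322-5p averaged 21.1 and 18.3 nt in Ago2 CD and 18.3 and 21.1 nt in wildtype. Those of miR-503-5p, whose mature sequence holds no TGG, averaged 22.6 and 20.5 nt in Ago2 CD and 20.6 and 22.6 nt in wildtype. Its 18-nt read (tagcagcgggaacagtac) had 20 and 566 copies in Ago2 CD and 305 and 7 in wildtype, and its 23-nt mature read had 3825 and 300 in Ago2 CD and 172 and 1625 in wildtype. The mean was 21.9 and 21.8 nt in Ago2 CD and 21.9 and 21.95 nt in wildtype for miR-16-5p, and it lay between 21.48 and 21.55 nt for miR-15b-5p.

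Mean length was tested for arms whose every library held 200 reads or more, 7 of them of the family. None of these passed limma's test (lowest adjusted p 1 after rounding, 0 of 7 at an unadjusted p under 0.05), against 0.388% of 258 arms. Within the pairs the genotypes differed by 0.017 and -0.050 nt for miR-322-5p and by 0.049 and -0.025 nt for miR-503-5p. MiR-322-3p was the arm with both Ago2 CD libraries longer, at 20.6 and 20.7 nt in Ago2 CD and 20.6 and 20.5 nt in wildtype, a difference of 0.078 nt. MiR-15b-5p was the arm with both Ago2 CD libraries shorter, at 21.537 and 21.482 nt in Ago2 CD and 21.538 and 21.548 nt in wildtype. Its difference of means was -0.033 nt. Over all 258 arms, 3.49% were longer and 6.20% shorter without overlap.

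**Figure D4:**
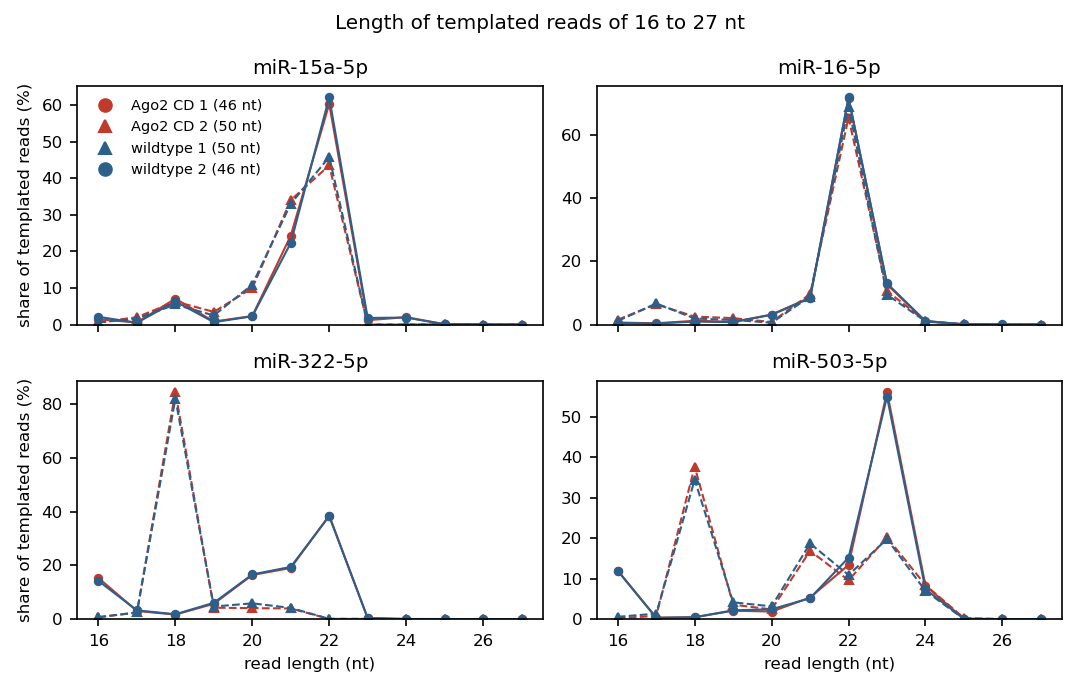
Share of templated reads by length, from 16 to 27 nt, for 4 of the 5p arms, with Ago2 CD in red, wildtype in blue, circles and solid lines for 46 nt and triangles and dashed lines for 50 nt libraries. The 18-nt peak of miR-322-5p is 84.5% in Ago2 CD 2 and 82.0% in wildtype 1, and 1.68% in Ago2 CD 1 and 1.79% in wildtype 2.

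Tails set miR-15a-5p apart from miR-15b-5p in all 4 libraries. Tailed reads were 17.9% and 36.4% of miR-15a-5p in Ago2 CD and 34.7% and 19.1% in wildtype. They were 2.05% and 2.00% of miR-15b-5p in Ago2 CD and 1.99% and 2.17% in wildtype. The comparison between the 2 miRNAs is a description with no test, since it was made after seeing the values.

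Part of the tails followed read length. A single added C stood on 0.188% and 15% of miR-15a-5p reads in Ago2 CD and on 11.3% and 0.205% in wildtype, and over all arms on 0.149% and 16.3% in Ago2 CD and on 12.8% and 0.126% in wildtype. A single A also differed with read length over all arms, at 3.39% and 1.43% in Ago2 CD and 0.886% and 2.5% in wildtype, and on miR-322-5p, at 3.75% and 0.818% in Ago2 CD and 0.908% and 4.16% in wildtype. On miR-15a-5p, T and A varied less between libraries than C. The T stood on 10.7% and 13.1% of miR-15a-5p reads in Ago2 CD and on 15.6% and 11.2% in wildtype, and the A on 5.78% and 6.82% in Ago2 CD and on 6.57% and 6.35% in wildtype. Both together reached at most 1.07% of miR-15b-5p reads in any library.

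The next base of the hairpin limits what can be seen as a tail. After mature miR-15a-5p it is G, so an added T is untemplated, whereas after mature miR-15b-5p and miR-16-5p it is T. Mature miR-15a-5p with an added T had 19.4 and 42.6 reads per 100 mature reads in Ago2 CD and 48.5 and 19.8 in wildtype. Mature miR-15b-5p followed by T, of either origin, had 0.605 and 0.446 per 100 in Ago2 CD and 0.176 and 0.564 in wildtype, so the 2 miRNAs stayed apart when templated T was counted. Mature miR-16-5p followed by T had 17.1 and 14 per 100 in Ago2 CD and 11.9 and 17.5 in wildtype, and its origin cannot be told apart.

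The tailed shares of the other 5p arms lay between those of miR-15b-5p and miR-15a-5p in each library. MiR-16-5p had 4.47% and 11.1% in Ago2 CD and 8.74% and 4.82% in wildtype. MiR-322-5p had 11.1% and 16.9% in Ago2 CD and 14.9% and 11.1% in wildtype, and miR-503-5p 8.62% and 13.02% in Ago2 CD and 11.98% and 7.82% in wildtype. In these 3 the 50 nt library of each genotype was the higher. Among the 3p arms, on fewer reads, miR-15a-3p had 11.2% and 38.4% in Ago2 CD and 40.6% and 13.2% in wildtype. MiR-503-3p had 18.8% and 20.1% in Ago2 CD and 9.25% and 20.5% in wildtype. MiR-322-3p did not follow read length, with 15.3% and 12.4% in Ago2 CD and 14.7% and 14.7% in wildtype, and at most 0.262% of its reads carried a single C.

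The tailed share was tested with limma on the same 258 arms. None of the 7 family arms passed (adjusted p = 0.999 each, 0 of 7 at an unadjusted p under 0.05), and 0 of 258 arms, or 0%, did. No family arm was without overlap, against 2.33% of all arms with both Ago2 CD libraries above and 4.65% with both below. With read length as a term in the model, 0 of 7 family arms and 0.775% of all arms passed. For miR-15a-5p the log2 change of tailed over templated reads was -0.01 (SE 0.76), with -0.12 and 0.10 within the 46 nt and 50 nt pairs. Tails of a single A or T gave 0 of 7 family arms and 0% of all arms past the threshold. MiR-503-5p was the 1 family arm without overlap in A or T tails, at 5.23% and 5.47% in Ago2 CD and 5.04% and 4.99% in wildtype, a pattern of 3.10% of all arms. None had both Ago2 CD libraries below, against 9.3% of all arms.

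**Figure D5:**
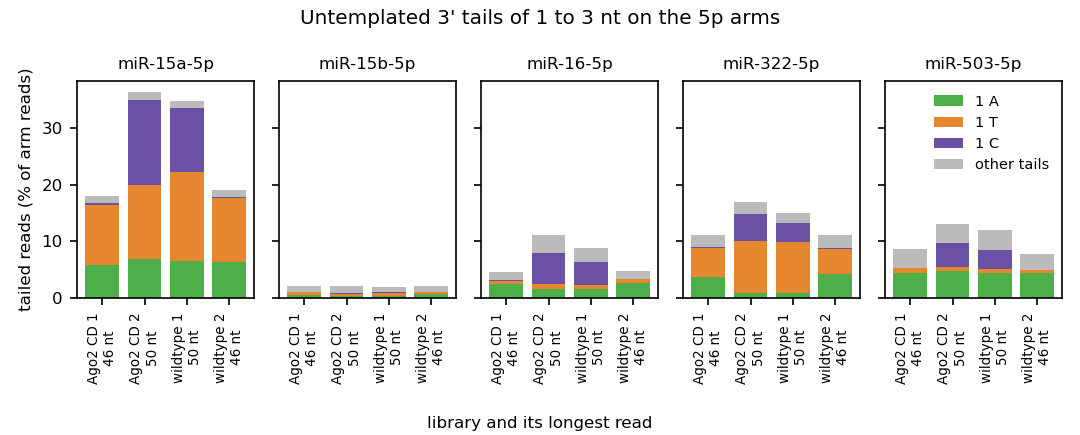
Stacked bars of the tailed share of the 5p arms in each library, split into reads with 1 added A, 1 added T, 1 added C and other tails of 1 to 3 nt, with Ago2 CD libraries to the left of wildtype libraries. The C part is visible in Ago2 CD 2 and wildtype 1, the 50 nt libraries, and miR-15b-5p is at most 2.17% in every library.

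The 5′ end, which sets the seed, was tested last. The most frequent 5′ end held 94.7% and 92.2% of miR-15a-5p reads in Ago2 CD and 94.1% and 95.1% in wildtype, and 93.6% and 90.4% of miR-16-5p reads in Ago2 CD and 92.6% and 93.7% in wildtype. For miR-322-5p it held 79.6% and 90.9% in Ago2 CD and 91.1% and 79.7% in wildtype, again split by read length. None of the 7 family arms passed limma's test (adjusted p = 0.998 each, 0 of 7 at an unadjusted p under 0.05), nor did any of the 258 arms (0%). No family arm was without overlap in this measure, against 4.65% of all arms with both Ago2 CD libraries above and 12.8% with both below.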

How the data were processed

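Small RNA-seq of fetal liver (2 Ago2 CD and 2 wildtype libraries) was analysed. The authors deposited counts per distinct read sequence, not normalized. Per the labels' protocols, Trizol RNA went into a modified TruSeq small RNA library procedure, and the submitters' processing notes name cutadapt without a version. Aligner, build and trimming settings are not given in the sources used here.

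Reads were matched without mismatch to the 2202 hairpins of GENCODE vM21 (GRCm38). Reads of 18 to 27 nt were assigned to the arm of RefSeq (1678 mature arms placed, all 12 of the family) that held their middle, and arms with one most frequent read were merged. Reads matching several arms (at most 0.0398% of arm reads) and reads with an undetermined base (at most 0.256%) were left out. Arm counts were tested with edgeR 4.0.16 (quasi-likelihood, TMM, filterByExpr) in R 4.3.3, with DESeq2 1.42.0 as an alternative. Ratios, tails and ends were tested with limma 3.58.1 on log2 values (pseudocount 0.5), and mean lengths were tested with limma in nt. These tests took hairpins with 20 or more reads, or arms with 200 or more, in each library. Tests were two-sided with Benjamini-Hochberg adjustment at 0.05 over all arms or hairpins, and shares of single libraries carry 95% Clopper-Pearson intervals. Reads have no molecular identifiers, so intervals and limits (3 counts for a count of 0) cover counting error only. Standard errors from edgeR are the absolute log2 fold change over the square root of F, and those from limma use its moderated variance. The functions were tested on simulated data.

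All family arms are named, then a fixed list of relatives, the 3 arms most like each 5p arm (the nearest is printed) and the 3 most frequent reads per arm. The members, lists and tests were chosen with earlier results of these data known. P-values measure the spread between libraries only. Replicate numbers did not pair libraries: deviations of same-numbered libraries correlated at -0.727. Python 3.11.15, SciPy 1.17.1 and matplotlib 3.10.9 were also used.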

Additional observations from a re-analysis of the deposited data

How the results depend on the processing

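With 2 libraries per genotype, small changes were not detectable. No family arm or hairpin passed a threshold under any alternative run: other scalings, tests, filters and read windows, the replicate block, a read length term and leaving out each library. The window of 16 to 30 nt was added after seeing the data. The cause of the changes listed here was not tested.

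Over all arms, the abundance calls (2 as reported) became 1 with miR-451a and miR-486 left out of the library sizes, 12 without a filter, 8 with DESeq2 and 8 with the read length term, where 131 arms and 4 family arms had an unadjusted p under 0.05 (lowest family adjusted p = 0.10, edgeR, miR-16-1-3p). Leaving out a library gave 0 to 2. Calls on the ratio (2) became 1 with the replicate block and 0 to 2 without one library. Calls on tails (0) became 2 with the read length term. Calls on A or T tails (0) ranged from 0 to 1 without one library. Calls on mean length (1) became 0 with a minimum of 100 reads, with the replicate block and without any one library. The Mir16-1 share difference (-7.69 points) was -6.50 for reads of 20 to 25 nt and -8.60 to -6.78 without one library.

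Same-numbered libraries deviated in opposite directions, which follows from the correlation between libraries of equal longest read. The crossed pairing equals the read length term. Under the replicate block (pairing by number) miR-16-1-3p changed by -0.95 and miR-15b-3p by 0.076 on the log2 scale, with 0 family arms past the threshold (3 of all arms).

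With reads on arms as library size, log2 fold changes turned positive: 0.10 for miR-15a-3p, 0.34 for miR-15a-5p, 0.026 for miR-15b-3p, 0.43 for miR-15b-5p, 0.44 for miR-16-5p and 0.64 for miR-322-5p. MiR-503-5p became -0.12 without miR-451a and miR-486 in the library sizes, miR-322-5p 0.079 for reads of 20 to 25 nt, and miR-15b-3p 0.038 with the read length term.

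Leaving out one library turned signs as follows, lowest to highest. Levels (log2) ranged from -1.26 to 1.64 for miR-15b-3p, -0.32 to 0.13 for miR-322-5p, -0.49 to 0.68 for miR-503-5p and -0.045 to 0.43 for miR-322-3p. The ratio ranged from -1.21 to 2.01 for Mir15b, -0.54 to 0.091 for Mir15a, -0.50 to 1.02 for Mir503 and -0.16 to 0.72 for Mir322. Tailed over templated reads ranged from -0.71 to 0.69 for miR-15a-5p, -0.10 to 0.029 for miR-15b-5p, -0.57 to 0.85 for miR-16-5p, -0.84 to 0.92 for miR-16-2-3p, -0.25 to 0.47 for miR-322-5p, -0.20 to 0.49 for miR-503-5p and -0.29 to 0.074 for miR-322-3p. A or T tails ranged from -0.44 to 0.21 for miR-15a-5p, -0.21 to 0.29 for miR-16-5p, -0.14 to 0.20 for miR-16-2-3p, -0.44 to 0.13 for miR-15b-5p, -0.10 to 0.19 for miR-322-5p and -0.29 to 0.041 for miR-322-3p. Mean length (nt) ranged from -1.04 to 1.06 for miR-503-5p, -0.24 to 0.12 for miR-15a-5p, -1.43 to 1.40 for miR-322-5p, -0.085 to 0.026 for miR-16-2-3p and -0.075 to 0.0074 for miR-16-5p. The 5′ end ranged from -0.25 to 0.75 for miR-16-2-3p, -0.72 to 0.67 for miR-322-5p, -0.54 to 0.35 for miR-503-5p, -0.25 to 0.16 for miR-15b-5p, -0.10 to 0.053 for miR-322-3p, -0.56 to 0.038 for miR-15a-5p and -0.52 to 0.10 for miR-16-5p. The shares of 5p reads (points) ranged from -2.21 to 0.86 for miR-15a-5p, -1.68 to 1.18 for miR-15b-5p, 0.19 to 0.72 for miR-16-5p, -0.011 to 0.68 for miR-322-5p and -0.058 to 0.33 for miR-503-5p. Among the alternatives for single members, 362 values of level, ratio, tail, length or end kept their sign and 63 changed it. Of the shares, 28 kept it and 7 changed it. With limma, the replicate block, the read length term and other read minimums left the estimates unchanged, so those signs could not change.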
